A study of Mus musculus with 6 samples.

Results

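The comparison set 2 single libraries of mouse embryonic fibroblasts side by side: cells carrying a control hairpin in iCD1 medium from which ethanolamine (Etn) had been left out, called Etn-deprived here, and cells carrying a hairpin against Pebp1 in iCD1 medium with Etn, called shPebp1. They are 2 of the 6 libraries analysed. All 6 were polyadenylated RNA from fibroblasts of the cross CBA/CaJ X C57BL/6J on day 2 of reprogramming. The control hairpin was directed against luciferase (shLuc), and shLuc replicate 1, in medium with Etn, served as the reference for direction. The library labelled shLuc replicate 2 and the knockdowns of the pathway enzymes, shEtnk1/2 and shPcyt2, are given beside it. Etn-deprived and shPebp1 therefore differed in both hairpin and medium, and each had 1 library, so no value below has a replicate of its own. A hairpin lowers an mRNA without removing the gene, 1 hairpin label stands for each knockdown, and how the reprogramming factors were delivered is not given in the sources used here. A library from shPebp1 cells without Etn is not analysed here.

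Ethanolamine enters phosphatidylethanolamine through the CDP-ethanolamine pathway. Ethanolamine kinases (Etnk1, Etnk2) phosphorylate it, Pcyt2 makes CDP-ethanolamine from the product, and a final transferase step joins that to a diglyceride. Pebp1, also known as Raf kinase inhibitor protein, is a phosphatidylethanolamine-binding protein that restrains signalling through the MEK and ERK kinases, and it has also been linked to NF-kB signalling. Fibroblasts on the way to pluripotency pass through a mesenchymal-to-epithelial transition, in which extracellular matrix and contractile genes are switched off and cell adhesion genes of epithelia are switched on. The study asked whether Etn acts in a way that depends on Pebp1, and the pair compared here places the loss of one beside the knockdown of the other.

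The 2 libraries had almost the same depth, 18467583 reads in genes for Etn-deprived and 18484272 for shPebp1, against 19233255 to 20020465 in the other 4. Values are RPKM (reads per kilobase of transcript, scaled to the size of the library), and differences are Etn-deprived minus shPebp1 on the log2(RPKM + 1) scale unless another pair is named. The table had 18303 rows, of which 11814 genes were compared: their RPKM averaged 1 or more across the libraries, and 125 short RNA rows that also did were left out. All 12 fibroblast markers were compared, and none of them was at 0 in either library. Their summed RPKM was 11497 in Etn-deprived and 10038 in shPebp1, and 10038 to 13662 over all 6 libraries. Summed macrophage markers were 51.2 to 68.6 RPKM over the 6 libraries, with 6 of 11 genes compared, and those of endothelium (Tie1 and Cldn5 at 0 in 1 or both libraries), skeletal muscle (Myog at 0), keratinocytes (Krt5 at 0) and adipocytes (Adipoq at 0) were 2.71 to 25.7. Neural and glial markers summed to 67.9 RPKM in Etn-deprived and 81.6 in shPebp1, and cartilage markers to 130.7 and 116.5. In bulk RNA, fewer cells of a type and less RNA per cell cannot be told apart.

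The targeted gene came first. Pebp1 (mm10 chr5:117282651-117287564, minus strand) had 250.4 RPKM in shLuc replicate 1, 100.7 in the library labelled shLuc replicate 2, 229.1 in shEtnk1/2, 263.4 in shPcyt2, 210.5 in Etn-deprived and 99.6 in shPebp1. The shPebp1 library thus held 39.8% of the level of shLuc replicate 1, and the library labelled shLuc replicate 2 held 40.2%, so Pebp1 did not separate that control from the knockdown. Etn-deprived stood at 2.11 times shPebp1, a difference of 1.07 (SE 1.20). The test did not call it, with a limma adjusted p of 0.797, and the spread in that test comes from the shLuc pair, whose members differed here by −1.31. Limma-voom on reads recovered from the RPKM values gave an adjusted p of 9.2e-25. Every result below that uses the shLuc pair rests on a library that goes against its label at Pebp1, and its value is printed beside the genes described in full.

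Of the enzymes of the Etn pathway, none was called. Pcyt2 had 33.5 RPKM in Etn-deprived and 38.3 in shPebp1 (difference −0.19, limma adjusted p 0.329), beside 42.0 and 40.0 in the shLuc libraries. Etnk1 had 23.68 and 22.02 RPKM, beside 21.02 and 21.45. Etnk2 stayed under the filter, at 0.519 and 0.683 RPKM. None of the 5 pathway genes compared was called by limma or by limma-voom, and none had an unadjusted p under 0.05. With so few members, this cannot be told apart from the 3.64% of all genes that limma called.

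On the values as deposited, more genes were lower than higher in Etn-deprived, and that split turned when a trend in transcript length was removed from each library. Limma called 430 of 11814 genes (3.64%), 84 higher in Etn-deprived (0.711%) and 346 lower (2.93%), at an adjusted p under 0.05. By size alone, 367 genes (3.11%) differed by at least 0.5 in either direction, 149 higher (1.26%) and 218 lower (1.85%), whereas 141 genes (1.19%) differed by that much within the shLuc pair. With the length trend removed, limma called 27 higher and 22 lower, and by size 208 genes were higher and 121 lower. With median ratio scaling and no length correction, the size rule gave 176 higher and 180 lower, and limma called 36 higher and 99 lower. The spread behind the limma calls came from the shLuc pair alone. Leaving out either member pooled the remaining shLuc library, shEtnk1/2 and shPcyt2 as 1 group, so effects of those knockdowns counted as spread. In these fits, limma called 1 gene (Ubb) without shLuc replicate 1 and 0 without the library labelled shLuc replicate 2. At an unadjusted p under 0.05 there were 764 and 831 genes. How much of the loss of calls came from that pooling was not tested. The size rule uses neither shLuc library.

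**Figure D1:**
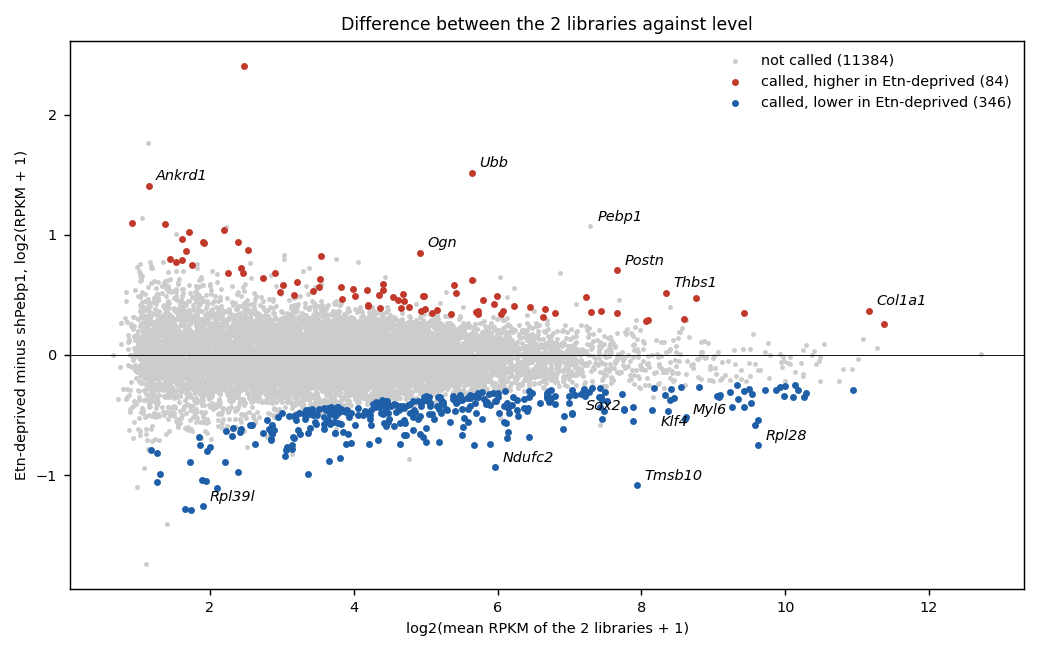
Each point is 1 of 11814 genes. The x axis is log2 of the mean RPKM of the 2 libraries plus 1, and the y axis is Etn-deprived minus shPebp1 on the log2(RPKM + 1) scale. The 346 genes called lower in Etn-deprived outnumber the 84 called higher, with Tmsb10 at −1.09 and Ubb at 1.52. Pebp1 (1.07) is not called.

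Set against shLuc replicate 1, most of the called genes lay further away in Etn-deprived than in shPebp1. By the distance of each library from shLuc replicate 1, Etn-deprived was over 2 times as far away for 302 of the 430 genes (70.2%), 31 higher and 271 lower. The same held for 37.3% of all genes compared. The shPebp1 library was the one further away for 27 called genes (6.28%, against 20.8% of all genes). A further 100 (23.3%, against 12.4%) lay on opposite sides of shLuc replicate 1 with neither distance over 2 times the other, and 1, Myl6, lay on the same side with neither distance over 2 times the other. Whatever the distances, 153 called genes (35.6%, against 64.7% of all genes) lay on the same side of shLuc replicate 1 in both libraries, 145 below it and 8 above it. Called genes were picked for a large difference between the 2 libraries, which by itself makes the same side rarer and opposite sides more common. The shares of called genes in these classes therefore describe the calls and test nothing. Past the size rule of 0.5, Etn-deprived differed from shLuc replicate 1 at 3.38% of genes and shPebp1 at 1.42%: 116 genes were higher (0.982%) and 283 lower (2.4%) in Etn-deprived than in shLuc replicate 1, and 57 (0.482%) and 111 (0.94%) in shPebp1. Both counts share that control library.

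Ubb, which encodes polyubiquitin, was the called gene furthest higher in Etn-deprived among those with at least 50 reads in the mean of the pair, and the departure was on the shPebp1 side. It had 70.1 RPKM in shLuc replicate 1, 68.8 in the library labelled shLuc replicate 2, 57.3 in shEtnk1/2, 55.7 in shPcyt2, 72.9 in Etn-deprived (95% Poisson interval 69.3 to 76.6) and 24.8 in shPebp1 (22.8 to 27.0). Every library but shPebp1 lay above 55 RPKM, so shPebp1 was alone at 35.4% of shLuc replicate 1, and the library labelled shLuc replicate 2, whose Pebp1 was as low, kept its Ubb. The difference was 1.52 (SE 0.09, limma adjusted p 2.18e-11), a ratio of 2.94. It was also called without shLuc replicate 1 (limma adjusted p 0.0131) and not without the library labelled shLuc replicate 2 (0.154), and over all alternatives its adjusted p ran from 1.3e-23 to 0.332. The table places Ubb at chr11:62551504-62551595, far shorter than the gene in GENCODE (chr11:62551171-62553213) and than the 1173 nt inferred from its RPKM. Its ubiquitin repeats are nearly identical to each other and to those of related genes, and how shared reads were counted is not given in the sources used here. None of the other 7 genes of the ubiquitin list was called.

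**Figure D2:**
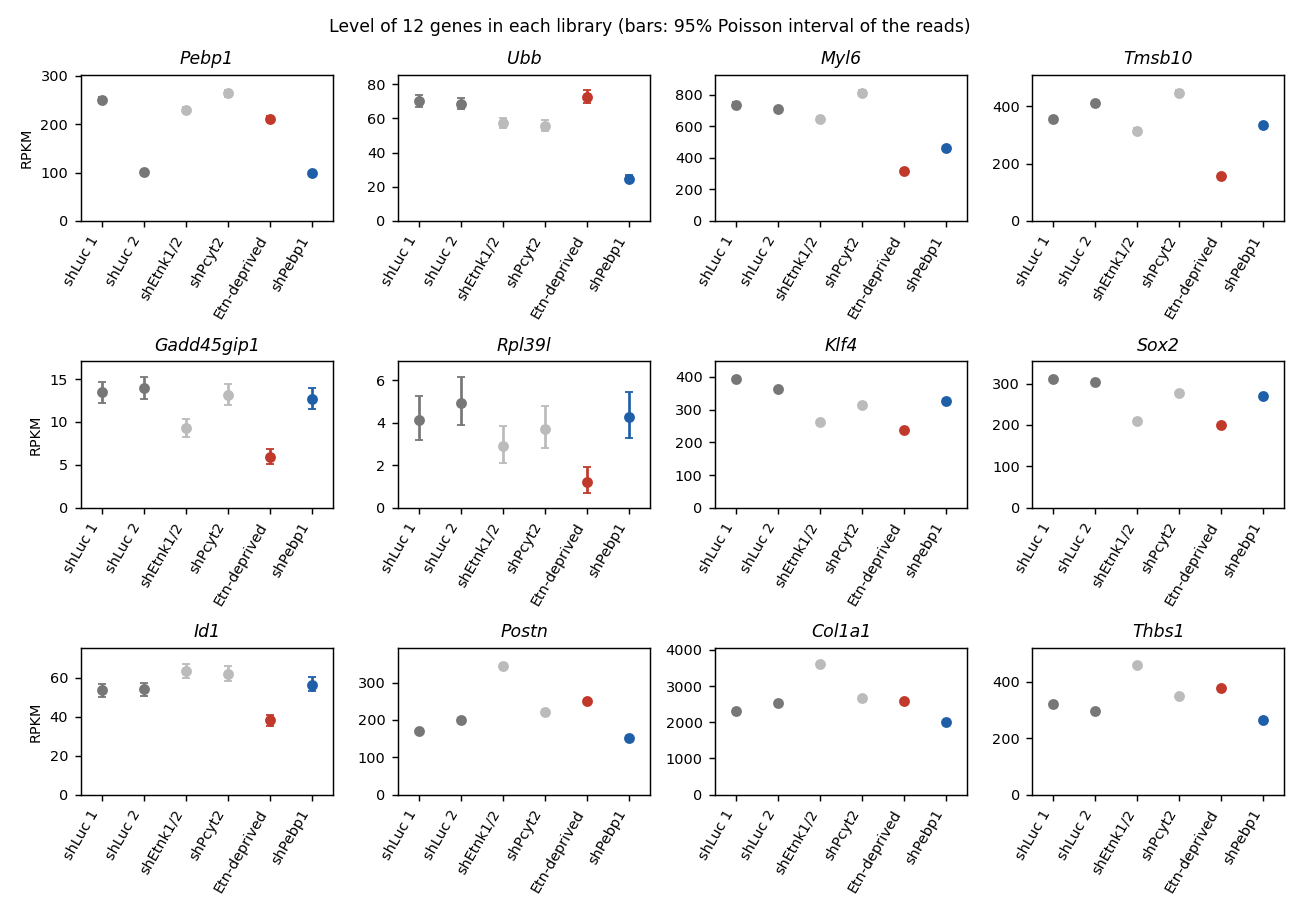
RPKM of 12 genes (y axis) in each of the 6 libraries (x axis), with 95% Poisson intervals of the recovered reads, which cover counting error only. Pebp1 is low in shPebp1 (99.6) and in the library labelled shLuc replicate 2 (100.7), Ubb is low in shPebp1 alone (24.8), and Myl6, Tmsb10, Gadd45gip1 and Rpl39l are lowest in Etn-deprived.

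Among the small genes of the actin and myosin cytoskeleton, limma called 6 of 15 lower in Etn-deprived than in shPebp1, against 2.93% of all genes, and 0 higher (median −0.18, against −0.02 over all genes). Tmsb10, which encodes the actin-monomer-binding thymosin beta 10 (chr6:72957347-72958748), had 355.6 and 409.8 RPKM in shLuc replicate 1 and the library labelled shLuc replicate 2, 315.3 in shEtnk1/2, 446.3 in shPcyt2, 156.8 in Etn-deprived and 334.1 in shPebp1. Etn-deprived was the lowest library and shPebp1 lay within the range of the other 4. The difference was −1.09 (SE 0.09, limma adjusted p 1.99e-05). The other members called lower were Myl6, the regulatory light chains Myl12a (−0.40) and Myl12b (−0.31), the actin-binding profilin Pfn1 (−0.34) and the calcium-binding S100a11 (−0.25). After a trend of the values in transcript length had been removed from each library, 2 of the 6 calls were left and the median was −0.05.

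Myl6, the essential light chain of non-muscle myosin II (chr10:128490861-128493825), was the called gene that lay below shLuc replicate 1 in both libraries with the distances within 2 times of each other. Its RPKM was 736.5 in shLuc replicate 1, 705.9 in the library labelled shLuc replicate 2, 645.2 in shEtnk1/2, 810.9 in shPcyt2, 317.1 in Etn-deprived and 459.3 in shPebp1. The 2 libraries compared were the lowest of the 6. Etn-deprived lay 1.21 and shPebp1 0.68 below shLuc replicate 1, whereas the shLuc pair differed by 0.06. Between the 2, the difference was −0.53 (SE 0.07, limma adjusted p 5.53e-05), so the 2 distances were unequal.

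Nuclear-encoded genes of oxidative phosphorylation and of the cytosolic ribosome made up the largest blocks of calls, all lower in Etn-deprived. Over all genes, 2.93% were called lower. Of 41 oxidative phosphorylation genes, 19 were called lower and 0 higher, with a median of −0.23. Of 40 cytosolic ribosomal protein genes, 14 were called lower and 0 higher, with a median of −0.18. Limma-voom called 10 and 13, all lower. Mitochondrial ribosomal protein genes had a like median of −0.21, with 3 of 32 called lower by limma (Mrpl33, Mrpl23 and Mrps21), 0 higher, and 0 by limma-voom.

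The largest differences in the respiratory chain were in small subunits. The complex I subunit Ndufa12 had 73.0 RPKM in shLuc replicate 1, 74.5 in the library labelled shLuc replicate 2, 44.6 in shEtnk1/2, 71.2 in shPcyt2, 37.0 in Etn-deprived and 63.0 in shPebp1 (difference −0.75, limma adjusted p 1.15e-05). The complex III subunit Uqcrq had 75.5, 76.2, 61.5, 81.9, 43.6 and 73.5 RPKM in the same order (−0.74, limma adjusted p 1.15e-05). In both genes Etn-deprived was the lowest library and shEtnk1/2 the next lowest. Ndufs6 (−0.74) and Ndufa2 (−0.73), also of complex I, followed. Ndufc2, another complex I subunit, was found by size and not through the list, at 80.2, 75.1, 59.3, 81.4, 41.9 and 80.9 RPKM (−0.93, limma adjusted p 2.37e-07). Against shLuc replicate 1, the median of the oxidative phosphorylation list was −0.24 for Etn-deprived, 0.01 for shPebp1 and −0.01 for the library labelled shLuc replicate 2.

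Rpl28, a protein of the large ribosomal subunit, led the ribosomal list with 1104 RPKM in shLuc replicate 1, 1099 in the library labelled shLuc replicate 2, 859.7 in shEtnk1/2, 1118 in shPcyt2, 585.2 in Etn-deprived and 987.0 in shPebp1. Its difference was −0.75 (SE 0.07, limma adjusted p 1.3e-07). Rpl38 (−0.55) and Rpl35 (−0.54) came next, while Rps6 differed by 0.03. Ribosomal protein genes have many near-identical pseudogenes, so reads could have been split among copies. Many vertebrate ribosomal protein mRNAs begin with a C followed by a run of pyrimidines, a feature through which their translation is controlled, and the annotated starts of the 3 genes with the largest differences are shown beside that of Rps6 to let the reader compare them. Each line runs from 10 bases before to 20 bases after the start of the gene in RefSeq (GRCm38.p6), on the gene's strand, with the run of C and T from the start in capitals.
Rpl28: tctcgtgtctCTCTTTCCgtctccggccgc
Rpl38: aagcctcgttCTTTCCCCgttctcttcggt
Rpl35: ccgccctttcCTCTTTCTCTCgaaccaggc
Rps6: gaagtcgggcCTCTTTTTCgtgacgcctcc
They lie at chr7:4792955-4792984 (plus strand), chr11:114668570-114668599 (plus), chr2:39005112-39005141 (minus) and chr4:86857348-86857377 (minus). Of the 40 ribosomal protein genes compared, 28 had a start in the RefSeq table. A C at the start with at least 4 further bases that were C or T, looked for on the gene's strand at that position alone, stood in 3 of the 10 called lower and in 3 of the 18 not called, against 3.01% of 27025 genes. The tract was thus found in some called and in some uncalled members, Rps6 among the latter. A tract at any other start of a gene was not counted, so these counts do not say which members lack one. They are too small to compare the 2 groups, and a link between tract and calls was not tested.

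Both of these lists consist of short transcripts, and transcript length moved with the difference. Over all genes, the median difference was −0.23 for the 326 genes of up to 700 nt, −0.10 for the 1619 over 700 and up to 1500 nt, −0.03 for the 4074 over 1500 and up to 3000 nt, 0.00 for the 3507 over 3000 and up to 5000 nt and 0.02 for the 2288 over 5000 nt. In the same order, limma called 30.4%, 9.82%, 3.02%, 0.969% and 0.656% of genes. The median lengths of the lists were 646 nt for oxidative phosphorylation and 659 nt for the cytosolic ribosome, against 2952 nt over all genes, and their medians of −0.23 and −0.18 stand beside −0.23 for all genes of up to 700 nt. The share of ribosomal protein genes called, 14 of 40, can be read against 30.4% of that length class, as can the 19 of 41 for oxidative phosphorylation. In that class, 94 of the 326 genes were called lower. It includes members of both lists, while other members are longer than 700 nt, so the comparison is rough.

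The trend lay on the Etn-deprived side. Against shLuc replicate 1, the median of genes of up to 700 nt was −0.27 for Etn-deprived, −0.05 for shPebp1 and −0.03 for the library labelled shLuc replicate 2, and for genes over 5000 nt it was 0.05, 0.02 and 0.01. GC content moved with it as well, from a median difference of 0.08 in the fifth of genes with the lowest GC content to −0.11 in the fifth with the highest. With the length trend removed, 3 of the 19 oxidative phosphorylation calls and 1 of the 14 ribosomal calls (Rpl28) were left, the list medians were −0.08 and −0.03, and the calls over all genes came to 49, 27 higher and 22 lower. What sets a library apart along transcript length, and its part in these gene groups, was not tested.

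**Figure D3:**
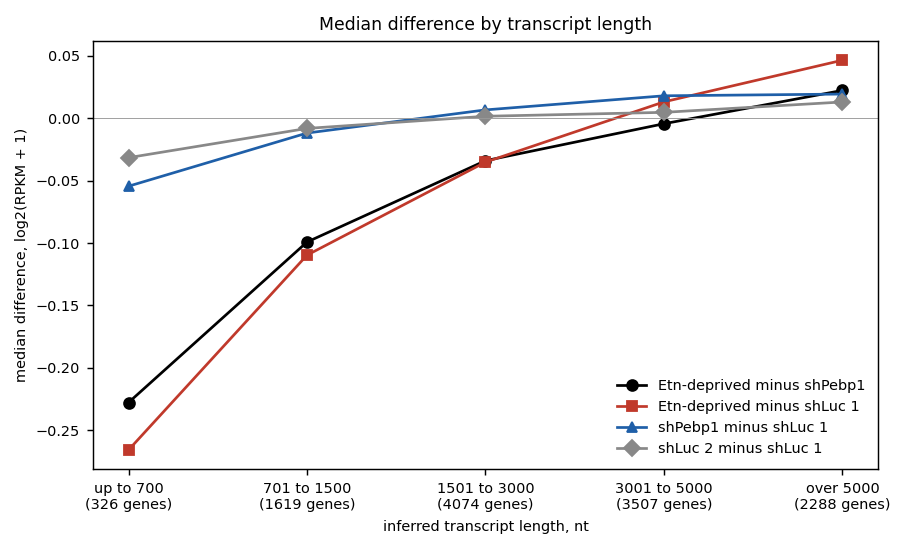
Median difference on the log2(RPKM + 1) scale (y axis) of genes in 5 classes of inferred transcript length in nt (x axis), for 4 pairs of libraries. The 2 lines that contain Etn-deprived climb from −0.23 and −0.27 in the shortest class, while shPebp1 and the library labelled shLuc replicate 2 stay within −0.05 to 0.02 of shLuc replicate 1.

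The reprogramming factors Klf4 and Sox2 were lower in Etn-deprived. Klf4 (chr4:55527137-55532475) had 394.2 RPKM in shLuc replicate 1, 362.5 in the library labelled shLuc replicate 2, 262.0 in shEtnk1/2, 313.6 in shPcyt2, 238.0 in Etn-deprived and 326.6 in shPebp1, a difference of −0.46 (SE 0.08, limma adjusted p 0.00122). Sox2 (chr3:34650005-34652460) had 310.7, 302.8, 208.5, 276.8, 200.3 and 270.2 RPKM in the same order, a difference of −0.43 (SE 0.08, limma adjusted p 0.00122). For both, Etn-deprived was the lowest of the 6 libraries, with shEtnk1/2 next, and shPebp1 lay below both shLuc libraries. Pou5f1 had 472.4 RPKM in Etn-deprived and 549.4 in shPebp1, beside 619.8 and 569.1 in the shLuc libraries, and was not called (−0.22, limma adjusted p 0.121), nor was Myc (0.10, limma adjusted p 0.773). The values do not separate introduced from endogenous copies of these genes. Their transcripts are 1453 to 3066 nt long, and the Klf4 and Sox2 calls held with the length trend removed (limma adjusted p 0.04 and 0.038).

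Few pluripotency genes could be compared. Of 18 in the list, 11 had a row in the table and 2 passed the filter on low values. Alpl, the alkaline phosphatase used as an early marker of reprogramming, had 7.39 RPKM in Etn-deprived and 10.9 in shPebp1, beside 11.2 and 11.4 in the shLuc libraries (−0.51, limma adjusted p 0.0264). Its call was lost with the length trend removed (limma adjusted p 0.12) and by limma-voom (adjusted p 0.0517). Nanog stayed at 0.0719 and 0.287 RPKM, from 3 and 12 reads.

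Mesenchymal genes gave more calls higher in Etn-deprived than any other list. Of 30 mesenchymal genes compared, 7 were called higher (against 0.711% of all genes) and 0 lower, with a median of 0.18. Postn, which encodes the matrix protein periostin (chr3:54361107-54391041), had 169.7 RPKM in shLuc replicate 1, 200.6 in the library labelled shLuc replicate 2, 345.6 in shEtnk1/2, 222.5 in shPcyt2, 249.9 in Etn-deprived and 152.9 in shPebp1, a difference of 0.71 (SE 0.11, limma adjusted p 0.007). Col1a1, a chain of collagen I, had 2322, 2523, 3600, 2683, 2581 and 2002 RPKM in the same order, a difference of 0.37 (SE 0.07, limma adjusted p 0.0031). In both genes shPebp1 was the lowest library and shEtnk1/2 the highest. All 7 called members encode proteins of the extracellular matrix or an enzyme acting on it. The other calls were Lox, which cross-links collagen (0.48), the matrix glycoprotein Tnc (0.40), the proteoglycan Bgn (0.35), and the collagen chains Col5a2 (0.28) and Col1a2 (0.26).

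The list as a whole lay on both sides of the reference, with a median of 0.14 above shLuc replicate 1 for Etn-deprived and −0.09 for shPebp1 (−0.03 for the library labelled shLuc replicate 2). Transcription factors of the mesenchymal state and other members gave no call. Snai1 had 11.1 RPKM in Etn-deprived and 7.14 in shPebp1 (0.57, limma adjusted p 0.104), but its shLuc values were 7.91 and 10.6. Fn1, which encodes fibronectin, differed by 0.19 (limma adjusted p 0.165) and the fibroblast surface protein Thy1 by −0.22 (0.214). With the length trend removed the list's median was 0.16 with 2 calls left, Lox and Col1a1; with GC content removed as well, 6 were left.

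Contractile and TGF-beta-responsive genes had positive medians, 0.29 over 13 genes and 0.13 over 17. Against shLuc replicate 1, the contractile median was 0.12 for Etn-deprived, −0.08 for shPebp1 and 0.15 for the library labelled shLuc replicate 2. The median of Etn-deprived thus lay within the range of the controls. For the TGF-beta list these medians were 0.07, −0.06 and 0.02. Limma called 1 contractile gene, higher in Etn-deprived, and limma-voom called 4, all higher. Over all genes, limma called 0.711% higher and 2.93% lower, and limma-voom called 120 of 11814 higher. The actin-binding tropomyosin Tpm1 had 175.6 RPKM in Etn-deprived and 136.9 in shPebp1, beside 153.3 and 170.2 in the shLuc libraries (0.36, limma adjusted p 0.0177, and 0.1 with the length trend removed). Larger differences in Cnn1 (1.06) and Tagln (0.55), 2 actin-binding proteins of smooth muscle, were called by limma-voom (adjusted p 0.0071 and 3e-05) but not by limma (adjusted p 0.667 and 0.617), where shLuc replicate 1 had 1.92 and 68.8 RPKM, and the library labelled shLuc replicate 2 had 4.48 and 92.7. Of the TGF-beta list, 1 gene was called in each direction. Thbs1, which encodes the matricellular thrombospondin 1, had 320.5 and 298.6 RPKM in the shLuc libraries, 460.1 in shEtnk1/2, 348.9 in shPcyt2, 379.8 in Etn-deprived and 264.9 in shPebp1 (0.52, SE 0.08, limma adjusted p 0.000232), so the 2 libraries lay on opposite sides of both shLuc libraries. Id1, an inhibitor of helix-loop-helix factors that BMP signalling induces, had 53.5, 54.0, 63.3, 62.0, 38.1 and 56.5 RPKM and was lowest in Etn-deprived (−0.56, SE 0.09, limma adjusted p 0.000509). The Id1 call was lost with the length trend removed (limma adjusted p 0.064).

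Epithelial genes gave no call. None of 11 compared was called by limma or limma-voom, beside 430 and 281 of all 11814 genes. In limma, 1 of the 11 had an unadjusted p under 0.05, beside 2020 of all genes. With so few members, 0 calls cannot be told apart from the share over all genes. Cdh1, which encodes E-cadherin, had 10.04 RPKM in Etn-deprived and 10.98 in shPebp1 (−0.12), beside 10.9 and 9.35 in the shLuc libraries. Epcam had 1.02 and 1.43 RPKM, from 39 and 55 reads, and the P-cadherin gene Cdh3 had 4.01 and 2.67 RPKM (0.45, limma adjusted p 0.188).

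**Figure D4:**
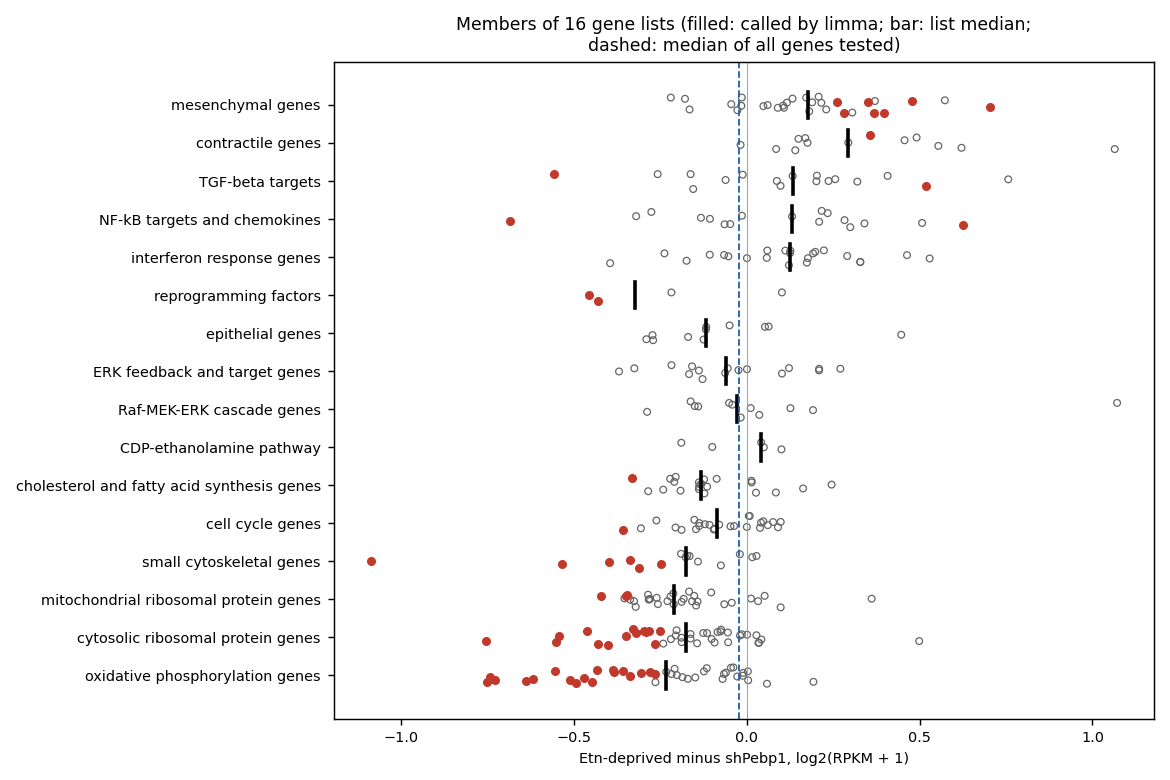
Each circle is 1 member of 1 of 16 gene lists, placed by Etn-deprived minus shPebp1 on the log2(RPKM + 1) scale (x axis), filled where limma called it; black bars are list medians and the dashed line is the median of all genes (−0.02). Mesenchymal (0.18) and contractile (0.29) lists lie to the right, and the reprogramming factors (−0.32), oxidative phosphorylation (−0.23) and ribosomal lists (−0.21 and −0.18) to the left.

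Limma made no call in the pathway that Pebp1 is known to restrain, but over all genes it called only 3.64%. In lists this small, 0 calls cannot be told apart from that share. Among 12 genes of the Raf, MEK and ERK cascade, Pebp1 included, limma called 0, 1 had an unadjusted p under 0.05, and limma-voom called only Pebp1. Over all 11814 genes, limma-voom called 281, and 2020 had an unadjusted p under 0.05 in limma. Mapk3, which encodes ERK1, had 60.2 RPKM in Etn-deprived and 73.7 in shPebp1, beside 73.9 and 71.1 in the shLuc libraries (−0.29, limma adjusted p 0.0649). Of 16 feedback regulators and targets of ERK, limma and limma-voom called 0, and 2 had an unadjusted p under 0.05, both lower in Etn-deprived. The phosphatase Dusp6 had 11.03 and 11.23 RPKM, and the transcription factor Etv4 had 3.80 and 5.20 (−0.37, limma adjusted p 0.216). These are mRNA levels and do not measure the activity of the kinases.

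NF-kB targets and chemokines gave 1 call in each direction among 17 compared. Over all genes, 0.711% were called higher and 2.93% lower. Ccl7, a monocyte-attracting chemokine, had 42.8 RPKM in shLuc replicate 1, 38.2 in the library labelled shLuc replicate 2, 52.6 in shEtnk1/2, 43.8 in shPcyt2, 59.7 in Etn-deprived and 38.3 in shPebp1 (0.63, SE 0.10, limma adjusted p 0.000512). Etn-deprived was the highest library and shPebp1 lay beside the lower control. Nfkbie, an inhibitor of NF-kB, had 1.78 RPKM in Etn-deprived and 3.46 in shPebp1 (−0.68, limma adjusted p 0.0466), beside 3.18 and 2.73 in the shLuc libraries. The Nfkbie call was lost with the length trend removed (limma adjusted p 0.166) and by limma-voom (adjusted p 0.128). Ly96, a co-receptor for endotoxin, had 11.1 and 7.48 RPKM, both above the 5.02 and 5.98 of the shLuc libraries (0.51, limma adjusted p 0.0602). Of 23 interferon response genes, limma and limma-voom called 0 (5 with an unadjusted p under 0.05 in limma, 4 higher in Etn-deprived), with a median of 0.13. Over all 11814 genes, 430 were called by limma and 2020 had an unadjusted p under 0.05.

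Several other lists gave 1 call each, and 3.64% of all genes were called. With so few members, a single call says nothing about its list, whatever its share. The cholesterol enzyme Dhcr7 was lower in Etn-deprived (38.6 against 48.9 RPKM, with 40.7 and 41.7 in the shLuc libraries, limma adjusted p 0.0466), 1 of 22 genes of cholesterol and fatty acid synthesis whose median was −0.13. That list stood 0.13 above shLuc replicate 1 in shPebp1 and 0.01 above it in Etn-deprived, and 0.08 above it in the library labelled shLuc replicate 2. The mitotic kinase Plk1 was lower (42.1 against 54.2 RPKM, limma adjusted p 0.0255), 1 of 26 cell cycle genes. The p53 target Ccng1 was higher (194.5 against 150.9 RPKM, limma adjusted p 0.00856), 1 of 12. Of these 12, 5 had an unadjusted p under 0.05 in limma and limma-voom called 2, all higher. Over all 11814 genes, those counts were 2020 and 281 in either direction. The chaperone Hsp90b1 was higher (425.7 against 345.3 RPKM, limma adjusted p 0.0194), 1 of 17 genes of endoplasmic reticulum and integrated stress, and the autophagy protease Atg4b was lower (16.2 against 21.6 RPKM, limma adjusted p 0.0475), 1 of 19. None of 14 glycolysis genes and none of 9 genes of phosphatidylserine and phosphatidylcholine synthesis was called by limma or limma-voom, with 4 and 2 at an unadjusted p under 0.05. In the marker lists, Fcer1g of macrophages was higher in Etn-deprived, from 30 against 12 reads (0.80, limma adjusted p 0.0466), while 3 of the 6 macrophage markers compared were above 0 and 3 below, and Tyrobp had 8 against 16 reads (−0.52). The neuronal Stmn2 was lower, at 42.4 against 53.8 RPKM (−0.34, limma adjusted p 0.045), 1 of 5 neural and glial markers compared, all of which were below 0.

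Outside the lists, several of the largest differences were in scarce transcripts. Ankrd1, a cardiac and stress-induced ankyrin repeat protein, had 2.22 RPKM in Etn-deprived and 0.213 in shPebp1, from 73 and 7 reads (1.41, limma adjusted p 0.00427), beside 0.534 and 1.21 in the shLuc libraries. Its level in shEtnk1/2 was 1.98 RPKM and in shPcyt2 2.11, near that of Etn-deprived. The serotonin receptors Htr2a (5.90 against 2.59 RPKM, 0.94) and Htr1b (3.94 against 1.57, 0.94) were both higher in Etn-deprived, and both had shPebp1 as the lowest library, with shLuc values of 4.69 and 3.99 for Htr2a and 2.86 and 3.06 for Htr1b. Edil3, an integrin-binding matrix protein, had 6.47 and 3.09 RPKM (0.87). The remaining 8 of the 12 largest higher differences were Ubb, C1qc, 1810044D09Rik, D630010B17Rik, Plac8, Upk3b, Hist1h3d and DQ267100, the last a 72 nt snoRNA in GENCODE that the filter on short RNA names did not remove, with 11 reads against 1.

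On the lower side, Rpl39l, a paralog of the ribosomal protein gene Rpl39, had 4.13 RPKM in shLuc replicate 1, 4.92 in the library labelled shLuc replicate 2, 2.89 in shEtnk1/2, 3.72 in shPcyt2, 1.20 in Etn-deprived and 4.27 in shPebp1 (−1.26, SE 0.19, limma adjusted p 0.000232). Gadd45gip1, also known as a component of the mitochondrial ribosome, had 13.4, 13.9, 9.28, 13.1, 5.89 and 12.7 RPKM (−0.99, SE 0.13, limma adjusted p 3.01e-05). Etn-deprived was the lowest library for both. Calb2, a neuronal calcium-binding protein, and Sst, which encodes somatostatin, differed the other way round: shPebp1 stood above every other library, at 3.45 and 4.21 RPKM against 0.827 and 1.53 in Etn-deprived (−1.29 and −1.05, from 22 to 92 and from 17 to 47 reads). The others among the 12 largest lower differences were Tmsb10, Ndufc2, Rnf113a1, Hist3h2ba (4 against 16 reads), Rps19-ps3, 1110054M08Rik, 1190002F15Rik and 1810021B22Rik.

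A set of 28 genes, picked after their values were seen, was called in each of 4 fits: limma on the values as deposited, with the length trend removed, with length and GC trends removed, and limma-voom. It held 11 genes higher in Etn-deprived (Serpinf1, Col1a1, Lox, Igfbp7, Thbs1, Anxa3, Nucb2, Ccl7, Ogn, Htr2a and Ubb) and 17 lower (Tmsb10, Gadd45gip1, Ndufc2, Gm5148, Dpysl4, Rpl28, Anapc15, Uqcrq, Ndufa2, Vps72, Snrpd2, Hypk, Nkd1, Lgals1, Myl6, Klf4 and Sox2). Ogn, a small matrix proteoglycan, had 24.9 and 28.2 RPKM in the shLuc libraries, 38.0 in Etn-deprived and 20.6 in shPebp1 (0.85, limma adjusted p 3.93e-05). Lgals1, which encodes galectin 1, had 1095 and 1090 RPKM in the shLuc libraries, 612.5 in Etn-deprived and 916.9 in shPebp1 (−0.58, limma adjusted p 1.15e-05). The Wnt inhibitor Nkd1 had 29.8, 34.0, 22.6 and 36.3 RPKM in that order (−0.66, limma adjusted p 0.000853). The 4 fits share the same reads, take their spread from the same shLuc pair and are not independent of each other. The calls of these genes were lost with no filter on low values. They were also lost with either shLuc library left out, except for Ubb without shLuc replicate 1.

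**Figure D5:**
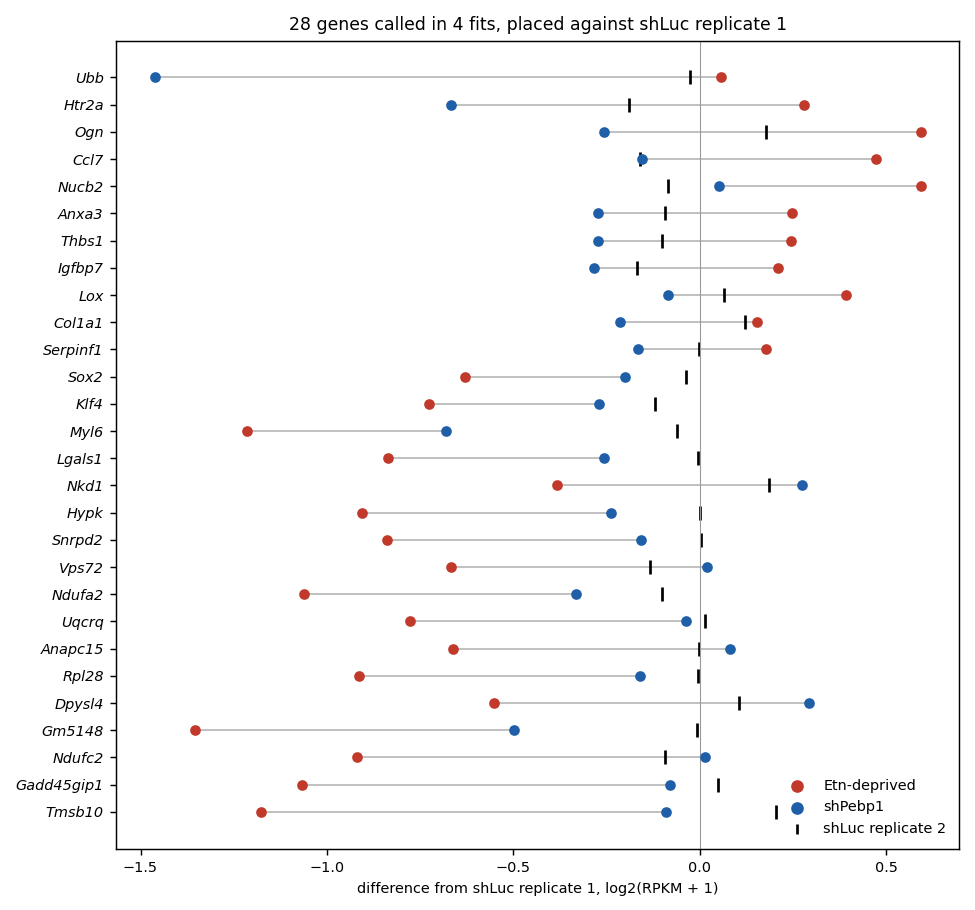
Difference of Etn-deprived, shPebp1 and the library labelled shLuc replicate 2 from shLuc replicate 1 on the log2(RPKM + 1) scale (x axis) for the 28 genes called in 4 fits. Ubb and Htr2a stand apart through shPebp1, and most of the lower genes through Etn-deprived. Myl6 lies below the reference in both (−1.21 and −0.68), as do several other lower genes, such as Gm5148 (−1.35 and −0.50).

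By the size rule, few of all genes were shifted alike in the 2 libraries. Of the 116 genes at least 0.5 above shLuc replicate 1 in Etn-deprived and the 57 in shPebp1, 16 (0.135% of all genes) were shared. Of the 283 and 111 genes at least 0.5 below it, 29 (0.245%) were shared. Over all genes, 0.982% were that far above it in Etn-deprived and 2.4% that far below. Shared genes were a larger part of the shPebp1 sets than these shares. Both distances use the same control library, so a control that itself stands off would give such genes. When the distance had to hold from both shLuc libraries, 2 genes were left above (0.0169%) and 6 below (0.0508%). Myl6 was the only one of these 8 with over 10 RPKM in either library.

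Of the rest, Bdh2, which encodes a hydroxybutyrate dehydrogenase, had 1.99 RPKM in shLuc replicate 1, 1.26 in the library labelled shLuc replicate 2, 3.31 in Etn-deprived and 3.85 in shPebp1, and shPcyt2 also had 3.35. Inha, the alpha subunit of inhibin, had 4.85 and 4.83 RPKM in the shLuc libraries, 2.21 in Etn-deprived and 2.90 in shPebp1, and shPcyt2 also had 2.89. Neither gene thus set the 2 libraries apart from shPcyt2. The other 5 had under 50 reads in the mean of the pair and are named after their values were seen: the interferon-induced chemokine Cxcl10 was above the controls (1.17 and 1.56 RPKM, from 24 and 32 reads, against 0.316 and 0.370), and Naa38, Car15, Ino80dos and BC089491 were below them. Naa38 had 6.32 and 6.28 RPKM in the shLuc libraries, 1.97 in Etn-deprived and 4.04 in shPebp1, from 19 and 39 reads.

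Against the mean of the shLuc pair, limma called 176 genes higher (1.49%) and 668 lower (5.65%) in Etn-deprived, and 4 higher (0.0339%) and 10 lower (0.0846%) in shPebp1. The 2 comparisons share both controls, 1 of which had Pebp1 as low as the knockdown itself, and the difference between the 2 counts is not a test of the difference between the libraries, which is the direct comparison above. Over 4 reprogramming factors, the median distance from shLuc replicate 1 was −0.51 for Etn-deprived, −0.24 for shPebp1 and −0.11 for the library labelled shLuc replicate 2, the same direction in all 3.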

How the data were processed

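Libraries were made from poly(A) RNA with 12 PCR cycles, per the labels' protocols. The authors deposited 1 table of RPKM values. The submitters' processing notes name Bowtie 0.12.2 and mm10; no source used here gives the gene models, counting, strand or handling of reads that map to several places. Overlapping and antisense genes can therefore share reads.

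All 18303 rows had RPKM in ratios of whole reads (within 1e-05 reads plus a relative 5e-09), from which reads and transcript lengths were inferred. Genes tested had a median of 679 to 693 reads in the 2 libraries, and Poisson intervals cover counting error only. Rows with date names (26) were kept.

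The log2(RPKM + 1) values, which understate fold changes of low genes, were fitted with limma 3.58.1 (R 4.3.3) as 5 group means over 6 libraries, with trended and robust empirical Bayes, 1 residual degree of freedom and a median prior of 24.8. P-values are two-sided, adjusted by Benjamini-Hochberg over 11814 genes, with a threshold of 0.05, and assume that both libraries vary as the shLuc pair did. Nothing says that this pair came from separate cultures, so p-values measure the spread between these samples, which may be technical. On simulated counts for this comparison (11814 genes, 100 changed at each size), 75% of 1.5-fold and 97% of 2-fold changes were recovered, with 39 false calls. Those false calls were a larger share of the simulated calls than the threshold of 0.05. The simulation took a single spread from the shLuc pair and held no trend in length or GC content. Its figures therefore do not cover the trends seen in the real libraries. The size rule has no test.

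Named were the targeted genes, the 12 largest called differences in each direction, up to 8 shared genes in each direction with at least 50 reads, up to 4 members of each of 31 lists with all called members, and a fixed panel. Results for some genes are not reported here. Members, lists and tests were chosen with earlier results of these data known. Length and GC trends (loess, span 0.4) used GC content for 95.5% of genes. Promoter starts are from RefSeq. Tables and figures were made with Python 3.11.15.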

Additional observations from a re-analysis of the deposited data

How the results depend on the processing

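No paired analysis was possible because replicate numbers are given for shLuc alone. The 430 calls became 433 with a pseudocount of 0.1 and 334 with a filter at 5 RPKM. They became 135 with median ratio scaling (26.7% higher, against 19.5%), 105 with quantile normalization (29.5%), 49 with the length trend removed (55.1%), 74 with length and GC removed (47.3%, added after the data were seen), 146 with short RNA rows kept, 281 by limma-voom (42.7%), 0 with no filter on low values (2621 genes at an unadjusted p under 0.05, against 2020) and 0 to 1 when either shLuc library was left out. All 49 and 192 of the 281 were among the 430. Genes in which Etn-deprived departed from shLuc replicate 1 (302) became 94, 78, 27, 46, 105, 177 and 0 in that order up to no filter, and 0 when either shLuc library was left out. Called list members (65) became 31, 29, 13, 19, 31 and 0 to 1 under median ratio, quantile, length, length and GC, short RNA rows and leaving out a shLuc library, and 0 with no filter.

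Genes past the size rule (367) became 708 with a pseudocount of 0.1, 164 with a filter at 5 RPKM, 758 by limma-voom and 23 at a size of 1. Their split of 149 higher and 218 lower became 176 and 180 with median ratio scaling. It turned to 208 and 121 with length removed and to 194 and 100 with length and GC removed. Genes shifted alike from shLuc replicate 1 (45) became 121 with a pseudocount of 0.1, 10 with a filter at 5 RPKM, 136 by limma-voom and 1 at a size of 1. They became 96 with no filter, 89 with short RNA rows kept and 38 with the library labelled shLuc replicate 2 as the reference. The median of genes of up to 700 nt (−0.23) moved to between −0.24 and −0.20.

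Of 87 named called genes, 86 remained called with a pseudocount of 0.1, 47 with median ratio scaling, 40 with quantile normalization, 25 with length removed and 52 by limma-voom, which also called 7 of 84 named genes not called by limma, and none changed direction. Among the other named genes, the signs that turned were of genes without a call and near 0: Cept1 (−0.041 with length and GC removed), Tubb3 (0.0056, length and GC), Krt10 (0.0033 length, 0.042 length and GC), Cebpa (0.0053 median ratio, 0.016 length, 0.11 length and GC) and Dusp6 (0.0022 median ratio, 0.0073 quantile). The causes were not tested. Depth limits single genes only at the low end, such as Hist3h2ba, with 4 reads against 16.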
